A study of Rattus norvegicus with 18 samples.

Results

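The genes described here are those of the cytosolic ribosomal proteins, the protein subunits of the ribosome that translates nuclear-encoded messages. They were taken by symbol: a probe set counted when its single gene symbol was Rpl or Rps followed by a number, with or without letters and a further number, or was Rplp0, Rplp1, Rplp2 or Rpsa, and symbols starting with Rps6k (kinases) were left out. This gave 105 genes of 16856 with a single-symbol probe set, each read from its probe set of highest mean. Of the 105, 96 passed a filter on low values (a mean above the 25th percentile of genes, 5.28 log2) and were tested. The 9 that did not pass all carry symbols with an added l and a number, which are given to further genes that resemble a subunit gene.

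Gene expression was measured with 1 Affymetrix whole-transcript array per animal in the extensor digitorum longus, a fast muscle of the hindlimb, of 18 adult Sprague-Dawley females of the F2 generation. The groups cross the diet of the F0 grandfather with the diet eaten by the female herself for 12 weeks, and are named in that order. There were 4 high-fat/high-fat animals (grandfather on the high-fat diet, female on the high-fat diet), 4 high-fat/chow, 5 chow/high-fat and 5 chow/chow animals, and fat supplied 42/45% of the energy of the high-fat diet. The labels do not give how many grandfathers founded each lineage, so that relatives may make p-values for the grandfather's diet too small.

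A cytosolic ribosome has a small subunit, which reads the message, and a large subunit, which forms the peptide bond. Their proteins are made in near-equal amounts and assembled with ribosomal RNA in the nucleolus. Most ribosomal protein messages in mammals begin with a C followed by a run of pyrimidines, the 5′ terminal oligopyrimidine (TOP) tract, through which mTORC1 and LARP1 control their translation. Striated muscle also makes Rpl3l, a paralogue of the large-subunit protein Rpl3 found in heart and skeletal muscle.

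The TOP tract was not used in choosing the genes. It is shown because the annotated starts of the subunit genes and of the symbols with an added l differed in it. In RefSeq's promoter windows for the assembly GRCr8, 20 of 49 genes with a plain subunit symbol (40.8%) had a C followed by 4 pyrimidines at the annotated start. The same pattern stood at 0 of 29 starts of l symbols, at 2 of 54 starts of mitochondrial ribosomal protein genes (3.70%) and at 2.63% of all 33469 starts. At Rpl23al5, Rpl29l4, Rpl30l1, Rpl37l2, Rps11l1 and Rps18l2 the annotated start is ATG, the letters of a start codon. Where a gene model leaves out the untranslated bases before it, a TOP tract could not show. The 0 of 29 therefore cannot settle whether messages of l symbols carry the tract. The 30 bases around the starts of 8 genes named below follow, 15 before the start and 15 from it, 5′ to 3′ on the gene's strand, with the first 5 transcribed bases in capitals.
Rps15 (chr7:10068101-10068130, minus strand): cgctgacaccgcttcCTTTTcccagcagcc
Rplp0 (chr12:46718376-46718405, minus strand): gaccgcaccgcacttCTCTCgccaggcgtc
Rpl14 (chr8:129163605-129163634, plus strand): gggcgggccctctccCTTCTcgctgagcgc
Rpl29 (chr8:115947628-115947657, plus strand): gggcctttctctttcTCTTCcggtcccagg
Rpl3 (chr7:113507976-113508005, minus strand): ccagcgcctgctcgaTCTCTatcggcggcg
Rpl5 (chr14:1995211-1995240, minus strand): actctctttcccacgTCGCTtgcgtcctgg
Rpl3l (chr10:14258431-14258460, plus strand): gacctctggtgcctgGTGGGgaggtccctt
Rpl14l2 (chr14:42949738-42949767, minus strand): taagagaggacattaAACATtaagagaaga
Rps15, Rplp0 and Rpl14 start with C and 4 pyrimidines. Rpl29 and Rpl3 have 5 pyrimidines that begin with T at the annotated base, and Rpl5, Rpl3l and Rpl14l2 have a purine among the first 5. The letters CTTCC, read on the gene's strand within these 30 bases, were present at 16 of 49 plain starts (32.7%) and at 6.05% of all starts. They were present at 9 of 54 mitochondrial ribosomal protein starts (16.7%) and at 3 of 29 l starts (10.3%). The complement on the other strand, GGAAG, was present at 1 of the 49 plain starts (2.04%) and at 6.73% of all starts. For the mitochondrial and l starts it was 3 of 54 (5.56%) and 3 of 29 (10.3%). CTTCC can overlap the pyrimidine run, as it does at Rpl29.

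The 96 tested genes comprise 34 large-subunit and 23 small-subunit genes with plain symbols (Rps4y2 among the small), 38 l symbols (28 large, 10 small) and Rps19bp1, whose symbol fits the rule although it names a binding protein of Rps19 and no subunit. Of the canonical subunit names, 34 of 47 large and 22 of 32 small had a single-symbol probe set. Another 13, among them Rplp1, Rplp2, Rpl38 and Rpl8, were named only on probe sets with several symbols and are not analysed here. Ribosomal protein genes have many processed copies, and some symbols carry many probe sets (46 at most), so probe sets of 1 symbol share sequence and the brightest one need not lie over the gene itself. For the l symbols the table cannot tell signal of their own locus from signal of the parent gene's message on the same probes, so their values are levels of a probe set that carries the symbol. Of 33 genes with several probe sets above the filter, 6 had probe sets of opposite sign for the female's own diet and 4 for the grandfather's diet. Those 4 were Rpl21, Rpl7a, Rps14 and Rps24.

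The deposited array medians ran from 67.5 to 74.0 in high-fat/high-fat, 60.2 to 70.7 in high-fat/chow, 55.0 to 66.5 in chow/high-fat and 66.3 to 70.5 in chow/chow animals, and arrays were brought to a common distribution before testing. Of 15 markers of muscle fibres, not all of them particular to fast fibres, 11 were measured, all with means between 12.2 and 13.2 log2. The summed intensity of these 11 markers was 79020 to 83170 in high-fat/high-fat, 78180 to 83160 in high-fat/chow, 79250 to 80590 in chow/high-fat and 80420 to 83680 in chow/chow animals. In a whole muscle, fewer cells of a type and less RNA per cell cannot be told apart.

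The grandfather's diet was compared first, averaged over both diets of the females. Rpl29, a large-subunit protein also described as a heparan sulphate-binding protein, was higher in the high-fat lineage. Its log2 levels were 11.53, 11.53, 11.26 and 11.46 in high-fat/high-fat animals and 11.13, 11.53, 11.66 and 11.48 in high-fat/chow animals, against 11.13, 11.11, 11.10, 10.95 and 11.16 in chow/high-fat animals and 11.20, 11.20, 10.97, 11.10 and 11.19 in chow/chow animals. All high-fat-lineage animals but 1, the first high-fat/chow animal, lay above every chow-lineage animal. The difference was 0.34 ± 0.06 log2 (SE; 95% interval 0.20 to 0.47, 1.26-fold, limma adjusted p = 0.049 over 12642 genes).

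The probe set of Rpl14l2, an l symbol named for the large-subunit protein Rpl14, was lower in the high-fat lineage. Its log2 levels were 8.47, 8.40, 8.36 and 8.03 in high-fat/high-fat animals and 8.77, 8.49, 8.55 and 8.37 in high-fat/chow animals, against 8.83, 8.57, 8.81, 8.87 and 8.74 in chow/high-fat animals and 8.80, 8.74, 8.81, 8.83 and 8.62 in chow/chow animals. The lineages overlapped through the first high-fat/chow animal, which sat among the chow lineage. The difference was -0.33 ± 0.07 log2 (SE; 95% interval -0.47 to -0.19, 0.796-fold, limma adjusted p = 0.049). Rpl14 itself, named here after its value was seen, differed by 0.02 log2.

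These were the only members called, 1 higher and 1 lower of 96, where 0.198% of all genes tested were called (0.158% higher and 0.0396% lower). Both calls lie close to the 0.05 threshold, and blocks ended both: with the array-well column as a block the limma adjusted p was 0.057 for each gene, and with neighbouring animal numbers as a random block 0.081 for each. Under the 30 other settings run, the log2 difference stayed between 0.30 and 0.39 for Rpl29 and between -0.37 and -0.23 for Rpl14l2, but the adjusted p reached 0.126 and 0.143, and 7 and 9 of the settings kept the call. At an unadjusted p under 0.05 there were 15 members higher and 7 lower (22.9% of members), against 14.6% of all genes (7.75% higher and 6.89% lower). No member separated the lineages without overlap, and 0.0396% of all genes did so with the high-fat lineage higher and 0.0158% with it lower.

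**Figure D1:**
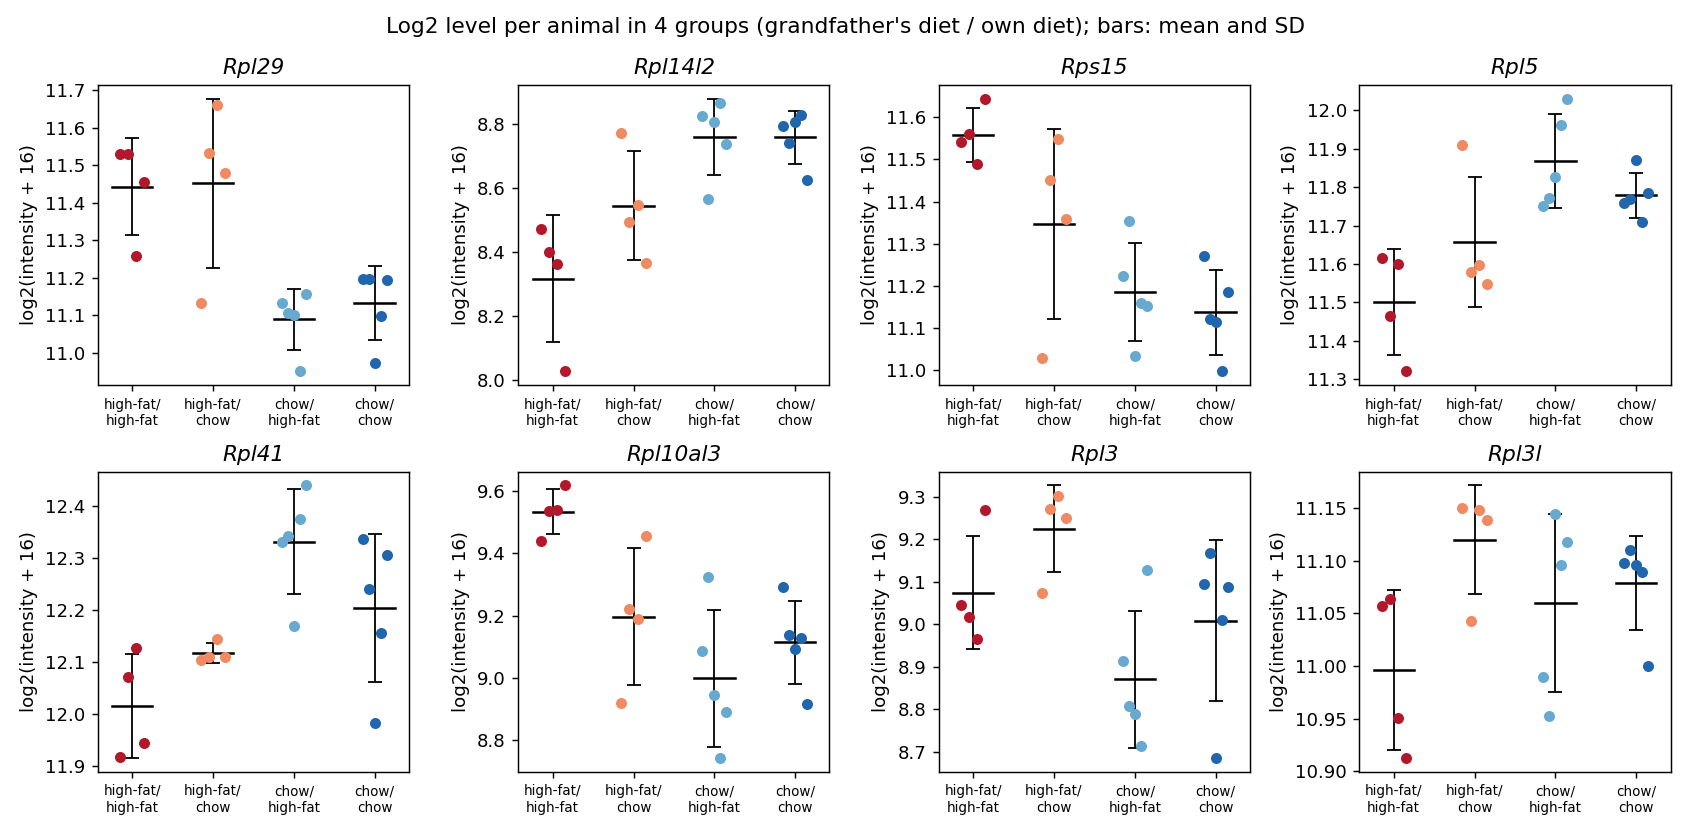
Log2(intensity + 16) after quantile normalization for 8 ribosomal protein genes, 1 point per animal, in the 4 groups (grandfather's diet / own diet), with the group mean and SD as bars; each panel has its own axis, and levels cannot be compared between genes. Rpl29 and Rps15 sit higher and Rpl14l2 and Rpl5 lower in the high-fat lineage, except in the first high-fat/chow animal.

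The Rpl29 difference was seen on every probe set that names the gene. All 8 single-symbol probe sets were higher in the high-fat lineage, by 0.17 to 0.45 log2, as were 5 of 5 probe sets that list Rpl29 with other symbols, by 0.20 to 0.36 log2. The 8 probe sets followed each other within groups (mean pairwise r = 0.896 over 18 animals), share sequence and are not independent measurements. Within the array-well columns 5, 7 and 9 given in the sample titles, which the labels do not explain, the Rpl29 difference was 0.33, 0.25 and 0.29 log2 and the Rpl14l2 difference -0.38, -0.36 and -0.26 log2. Column 9 gave this difference from 1 animal a side. Some well names in the titles belong to an animal of each lineage, and none recurs within a lineage. The columns may therefore pool several plates, and the labels do not say whether the lineages were run on different ones. Differences within columns cannot tell plate from lineage, and a part of the plate was not tested.

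**Figure D2:**
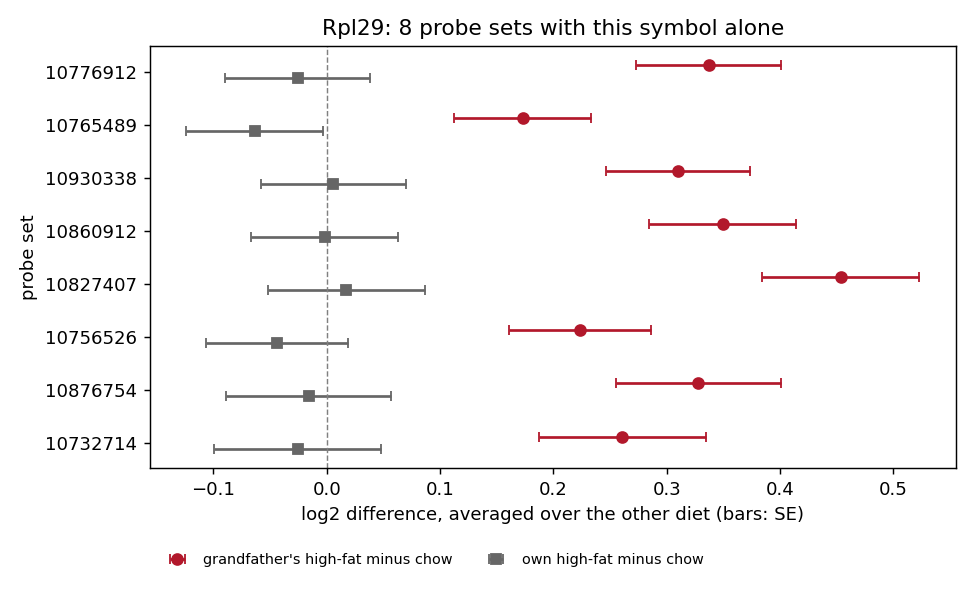
Log2 difference with its SE for the 8 probe sets whose only symbol is Rpl29, ordered by mean level, for the grandfather's diet (circles) and the female's own diet (squares), each averaged over the other diet. All circles lie between 0.17 and 0.45, and the squares lie between -0.06 and 0.02.

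The next members by p did not pass the threshold. Rps15, a small-subunit protein needed for export of the small subunit from the nucleus, had 11.54, 11.56, 11.49 and 11.64 log2 in high-fat/high-fat and 11.03, 11.45, 11.55 and 11.36 in high-fat/chow animals, against 11.22, 11.35, 11.03, 11.16 and 11.15 in chow/high-fat and 11.27, 11.12, 11.11, 11.00 and 11.19 in chow/chow animals. All 4 high-fat/high-fat animals lay above the chow lineage, while the first high-fat/chow animal was among its lowest values. The averaged difference was 0.29 ± 0.06 log2 (SE, limma adjusted p = 0.061).

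Rpl5 binds the 5S ribosomal RNA together with Rpl11 and, outside the ribosome, the p53 regulator Mdm2. Its levels were 11.62, 11.46, 11.60 and 11.32 log2 in high-fat/high-fat and 11.91, 11.58, 11.60 and 11.55 in high-fat/chow animals, against 11.75, 11.77, 11.83, 11.96 and 12.03 in chow/high-fat and 11.76, 11.77, 11.87, 11.71 and 11.78 in chow/chow animals. All high-fat-lineage animals but the first high-fat/chow animal lay below every chow-lineage animal. The averaged difference was -0.24 ± 0.06 log2 (SE, limma adjusted p = 0.079). It was smaller on the probe sets that list Rpl5 with Rpl5l1, at -0.040, -0.125 and -0.134 log2. Rpl11, the partner of Rpl5, named after its values were seen, had a difference of 0.23 ± 0.07 log2 (SE, limma adjusted p = 0.15). Rpl10al3, an l symbol named for Rpl10a, had 0.31 ± 0.08 log2 (SE, limma adjusted p = 0.086), and Rpl41, the shortest ribosomal protein, had -0.20 ± 0.05 log2 (SE, limma adjusted p = 0.094).

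The first high-fat/chow animal weighed on these counts. Without it, 8 members were called for the grandfather's diet, where 2.40% of all genes were called. Higher were Rpl29 (0.39 log2), Rpl10al3 (0.35), Rps15 (0.34), Rpl11 (0.28), Rpl32 (0.22) and Rps29 (0.19), and lower were Rpl14l2 (-0.37) and Rpl5 (-0.29). Leaving out the second chow/high-fat animal or the first high-fat/high-fat animal left Rpl14l2 as the only member called, where 0.119% and 0.301% of all genes were called, and leaving out any of the other animals left 0 of 96. The labels give no reason to leave out an animal.

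At each diet of the females taken alone, 0 of 96 members passed limma's test for the grandfather's diet. The 2 comparisons use different animals. Among high-fat-fed females, where 0% of all genes were called, 9 members were higher and 11 lower at an unadjusted p under 0.05 (20.8%, against 13.3% of all genes, 6.68% higher and 6.63% lower). The smallest p belonged to Rpl10al3, at 9.44, 9.54, 9.54 and 9.62 log2 in high-fat/high-fat animals against 9.09, 9.32, 8.95, 8.74 and 8.89 in chow/high-fat animals. These groups did not overlap, and the difference was 0.53 ± 0.11 log2 (SE, limma adjusted p = 0.099). The share of all genes without overlap between these 2 small groups was not computed. Rpl14l2 (-0.44 log2), Rpl5 (-0.37), Rpl41 (-0.32) and Rps17l3 (-0.32) followed, with limma adjusted p-values from 0.099 to 0.101. Without the first high-fat/chow animal, which enters this comparison only through the shared variance and the common normalization, 6 members were called, where 0.427% of all genes were called. Without the first high-fat/high-fat animal 2 were called, Rpl10al3 and Rpl14l2, where 0.443% of all genes were called.

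Among chow-fed females, where 0.00791% of all genes were called, 12 members were higher and 2 lower at an unadjusted p under 0.05 (14.6%, against 8.75% of all genes, 4.34% higher and 4.41% lower). The smallest p belonged to Rpl29 (0.32 log2), Rpl27al5 (0.35), Rpl32 (0.22), Rpl23a (0.14) and Rpsa (0.33), with limma adjusted p-values from 0.377 to 0.478. Rpsa, the small-subunit protein also known as the laminin receptor precursor, had 10.54, 10.81, 10.80 and 11.01 log2 in high-fat/chow animals against 10.44, 10.49, 10.41, 10.58 and 10.40 in chow/chow animals. These groups overlapped through 1 high-fat/chow animal.

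The female's own high-fat diet, averaged over lineages, gave 0 of 96 members called by limma, where 0.0158% of all genes were called. At an unadjusted p under 0.05, 2 members were higher and 1 lower (3.12%, against 6.73% of all genes, 3.29% higher and 3.44% lower). Rpl36l1, an l symbol named for Rpl36, had the smallest p, with 6.89, 6.74, 6.94 and 7.13 log2 in high-fat/high-fat and 6.68, 7.05, 6.77, 6.90 and 6.95 in chow/high-fat animals, against 6.58, 6.15, 6.50 and 6.62 in high-fat/chow and 6.91, 6.59, 6.76, 6.43 and 6.85 in chow/chow animals. The own-diet groups were apart within the high-fat lineage and overlapped within the chow lineage. How many of all genes were apart in this way was not computed. The averaged difference was 0.31 ± 0.08 log2 (SE, limma adjusted p = 0.333). Rpl18 (0.13 log2), Rps17l3 (-0.11), Rpl3 (-0.14) and Rps15 (0.13) followed, with limma adjusted p-values from 0.741 to 0.753.

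Within each lineage the own diet also left 0 of 96 members called by limma and 0% of all genes. In the chow lineage 1 member was higher and 0 lower at an unadjusted p under 0.05 (1.04%, against 4.8% of all genes, 2.49% higher and 2.31% lower), and that member was Rpl23al6 (0.26 log2). In the high-fat lineage 5 were higher and 11 lower (16.7%, against 9.25% of all genes, 4.86% higher and 4.4% lower). Smallest in p there were Rpl36l1 (0.46 log2), Rps17l3 (-0.29), Rpl10al3 (0.34), Rpl39 (-0.36) and Rps7 (-0.21).

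Rpl39, a small basic protein at the peptide exit tunnel of the large subunit, had 11.80, 11.48, 11.09 and 10.99 log2 in high-fat/high-fat animals against 11.61, 11.74, 11.62 and 11.84 in high-fat/chow animals. It spread over 0.81 log2 in high-fat/high-fat and 0.23 log2 in high-fat/chow animals. Rps7, a small-subunit protein, had 10.87, 10.77, 10.76 and 10.77 log2 in high-fat/high-fat against 10.89, 11.14, 11.04 and 10.91 in high-fat/chow animals, without overlap (limma adjusted p = 0.461). The share of all genes without overlap between these groups was not computed.

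The difference between the own-diet effects of the lineages, high-fat lineage minus chow lineage, passed limma's test for 0 of 96 members and 0% of all genes, with 2 members above and 9 below at an unadjusted p under 0.05 (11.5%, against 6.83% of all genes, 3.57% above and 3.26% below). Smallest in p were Rps17l3 (-0.34 log2), Rpl10al3 (0.45), Rpl39 (-0.51) and Rpl14l1 (-0.28), each with a limma adjusted p of 0.649. These comparisons share animals with those above.

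Large-subunit, small-subunit and l genes were then set side by side. Averaged over lineages, the median difference for the own high-fat diet was -0.05 log2 over the 34 large-subunit genes, -0.07 over the 23 small-subunit genes and -0.02 over the 38 l symbols, against -0.003 over all genes. In the high-fat lineage it was -0.09 for large, -0.13 for small and -0.05 for l genes, against -0.001 over all genes, and 47 of the 57 plain genes were lower, where 49.6% of all genes were higher. In the chow lineage the median was 0.005 log2 for large, -0.001 for small and 0.006 for l genes, against -0.003 over all genes. On the table as deposited, where the median of all genes in the high-fat lineage was 0.11 log2, the median of the 96 members was 0.03, so that only its position below all genes was kept. Classes were described by medians and counts, and no difference between them was tested.

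The shift in the high-fat lineage was not shared by all of its animals. The median over the 96 members, each centred over the arrays, was 0.08, 0.004, -0.10 and -0.11 log2 in high-fat/high-fat animals. It was 0.007, 0.03, 0.08 and 0.08 in high-fat/chow animals, so that the groups overlapped. The small-subunit median spread most, at 0.15, -0.002, -0.12 and -0.24 log2 in high-fat/high-fat animals against -0.03, -0.02, 0.10 and 0.19 in high-fat/chow animals. Markers of other cells moved with the own diet as well. All 10 fibroblast and matrix markers and 8 of 9 leukocyte markers were lower on the own high-fat diet when averaged over lineages, as were 5 of 5 tendon markers (median -0.22 log2), while 4 of 4 red blood cell markers were higher (median 0.22 log2), where 48.3% of all genes were higher. The median fibroblast difference was -0.23 log2 in the chow and -0.24 in the high-fat lineage. For leukocyte markers it was -0.17 and -0.18, for tendon -0.34 and -0.14, and for red blood cell 0.35 and 0.10. The median of the 96 members was 0.002 log2 in the chow and -0.08 in the high-fat lineage. Of other marker lists averaged over lineages, 9 of 11 muscle fibre and 5 of 6 endothelial markers were lower. Higher were 6 of 8 adipocyte and 3 of 5 nerve markers. None of these markers was called. The summed fibroblast markers ran from 7596 to 8993 in high-fat/high-fat animals, 8892 to 11420 in high-fat/chow, 6542 to 9285 in chow/high-fat and 8409 to 11190 in chow/chow animals. The summed leukocyte markers ran from 1136 to 1265 in high-fat/high-fat, 1159 to 1421 in high-fat/chow, 952.5 to 1269 in chow/high-fat and 1032 to 1403 in chow/chow animals. The summed tendon markers ran from 2438 to 3391 in high-fat/high-fat, 2572 to 4142 in high-fat/chow, 1500 to 4481 in chow/high-fat and 2592 to 4020 in chow/chow animals. The summed red blood cell markers ran from 764.4 to 3405 in high-fat/high-fat, 940.0 to 1894 in high-fat/chow, 703.9 to 3916 in chow/high-fat and 932.8 to 1714 in chow/chow animals. Their part in the ribosomal protein values was not tested.

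The medians for the grandfather's diet differed with the diet of the females. Averaged over own diets the median was 0.01 log2 for large, 0.002 for small and -0.02 for l genes, against -0.003 over all genes, with 48 members higher and 48 lower, where 48.8% of all genes were higher. Among chow-fed females the median was 0.04 log2 for large, 0.03 for small and 0.03 for l genes, against -0.002 over all genes. Among high-fat-fed females it was -0.03 log2 for large, -0.09 for small and -0.05 for l genes, against 0.001 over all genes. On the table as deposited, the median of the 96 members was -0.04 log2 among chow-fed and 0.14 among high-fat-fed females, where all genes had -0.06 and 0.18, so that these signs differed between the scalings.

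**Figure D3:**
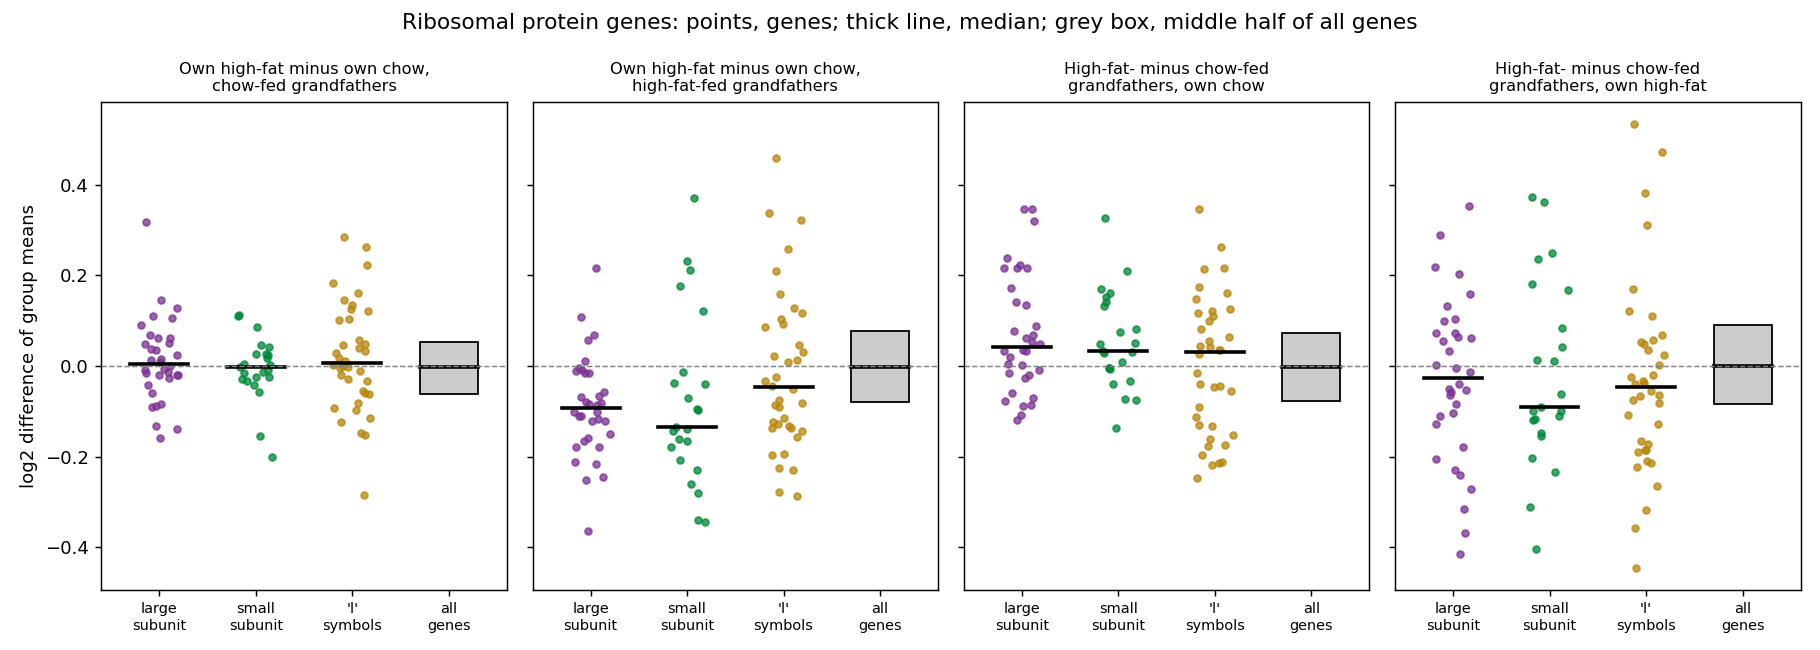
Log2 difference of group means for each tested ribosomal protein gene (points) by class, with class medians (thick lines) and the quartiles and median of all 12642 genes (grey boxes), in the 4 comparisons between pairs of groups. The own-diet points of the chow lineage centre near 0, and 47 of the 57 plain genes lie below 0 for the own diet in the high-fat lineage.

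Among animals of a group, the plain subunit genes varied partly together. Over the 18 animals with group means removed, the mean pairwise Pearson r was 0.281 among small-subunit genes, 0.170 among large-subunit genes and 0.213 between the subunits. It was 0.073 among l symbols, 0.124 among 64 mitochondrial ribosomal protein genes, 0.276 among 10 elongation factor genes and 0.0004 over all genes. All genes of an animal share its array, its RNA and the normalization, and these values are given as a description with no test. Of the 57 plain genes, 28 had an r above 0.5 with the mean of the others, led by Rps19 (0.909), Rpsa (0.906) and Rps14 (0.889), all of the small subunit. Only 6 had an r below 0, the lowest being Rpl4 (-0.55) and Rps2 (-0.40). Of the 38 l symbols, 7 had an r above 0.5 with the mean of the plain genes and 14 an r below 0. The share over all genes was not computed.

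**Figure D4:**
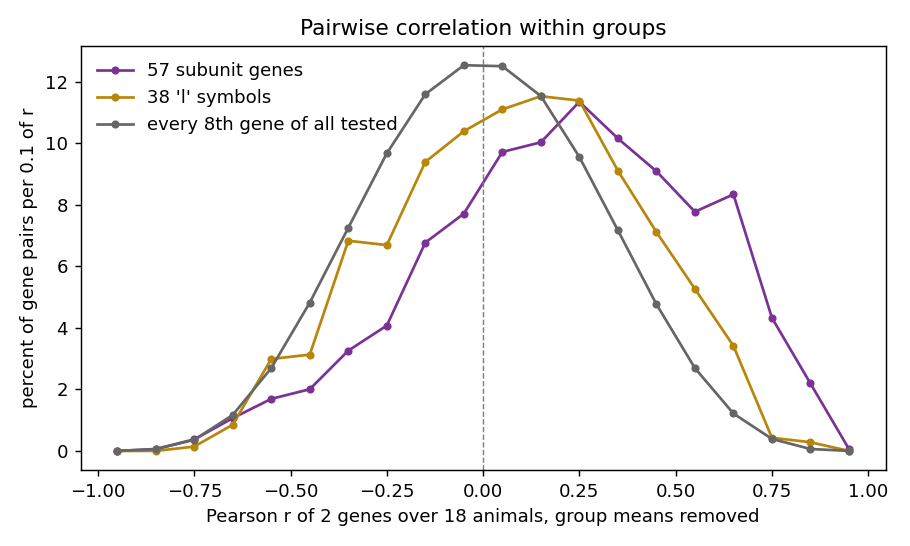
Percent of gene pairs per 0.1 of Pearson r over 18 animals, group means removed, for 57 plain subunit genes, 38 l symbols and every 8th gene of all tested. The curve of the subunit genes lies to the right of the others, with a mean of 0.209 against 0.073 for the l symbols.

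**Figure D5:**
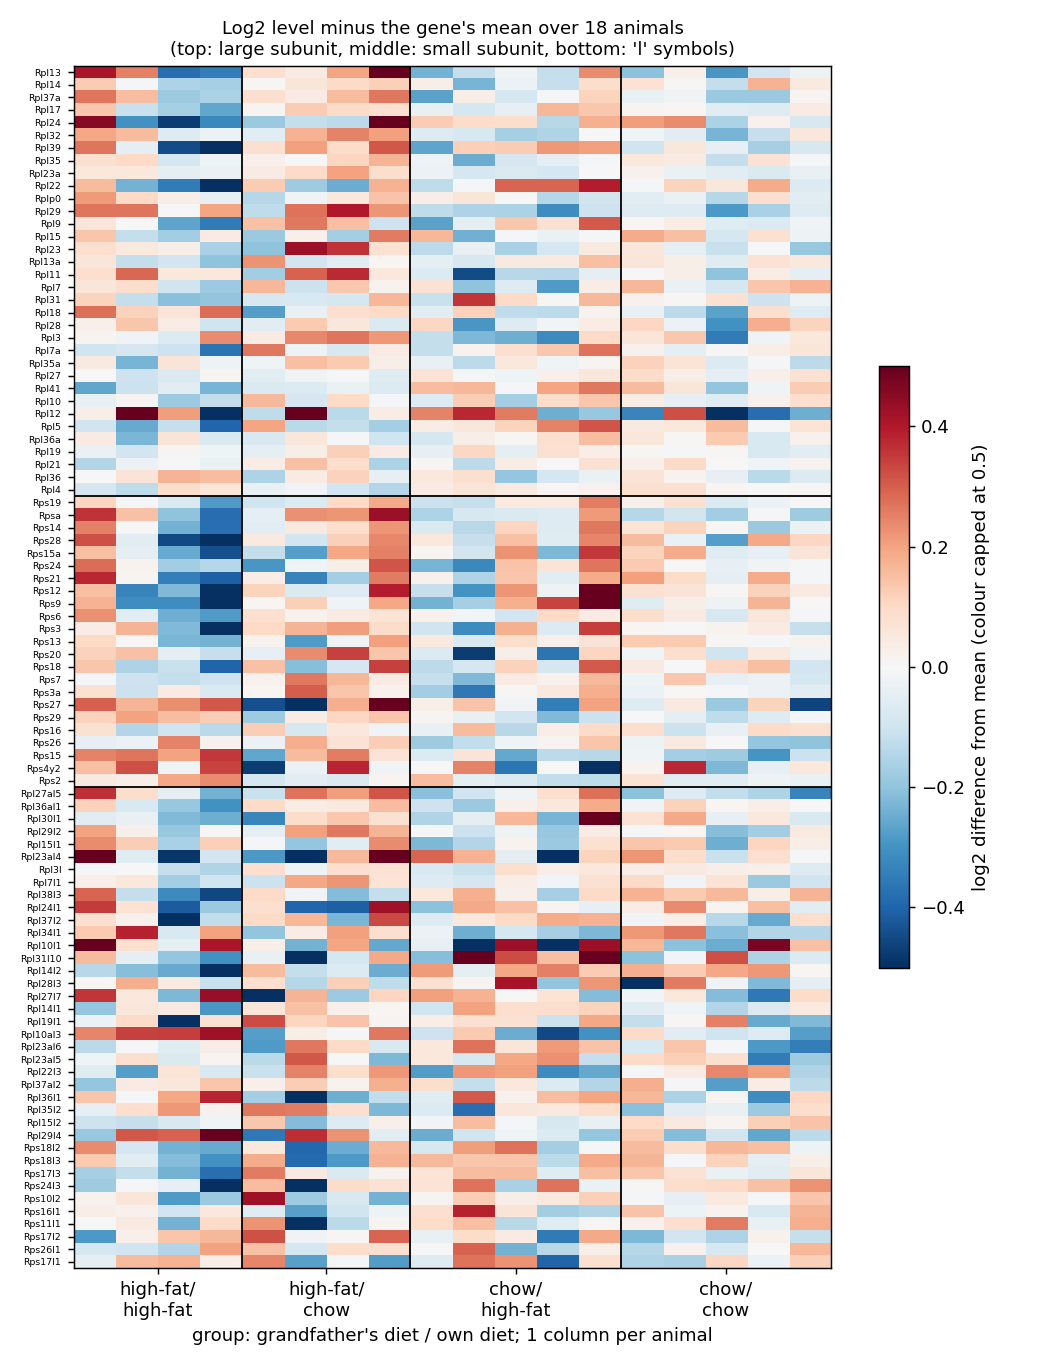
Log2 level minus the gene's mean over 18 animals for 95 tested genes (rows: large subunit, small subunit, l symbols, each ordered by r with the other plain genes) in the 4 groups (columns: 1 per animal), with colours capped at 0.5 log2. Many small-subunit genes are high together in the first and low together in the fourth high-fat/high-fat animal, whose small-subunit medians were 0.15 and -0.24 log2.

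Spread differed widely between members. Rpl27 (SD within groups 0.046 log2), Rpl23a (0.048), Rpl19 (0.056), Rpl4 (0.061) and Rpl3l (0.066) varied least, and 0.229% to 2.17% of all genes had a lower SD. Rpl10l1 (0.443), Rpl12 (0.388), Rps27 (0.353), Rpl23al4 (0.346) and Rpl31l10 (0.305) varied most, and 96.7% to 98.9% of all genes had a lower SD. The mean levels of these were 5.80, 10.99, 6.32, 7.64 and 6.67 log2 in that order, where the filter lay at 5.28. The least variable members had means of 11.0 to 11.9 log2. Rpl12, a large-subunit protein at the base of the stalk, had 11.02, 11.63, 11.20 and 10.32 log2 in high-fat/high-fat, 10.86, 11.69, 10.85 and 11.03 in high-fat/chow, 11.24, 11.37, 11.25, 10.75 and 10.80 in chow/high-fat and 10.66, 11.31, 10.49, 10.61 and 10.75 in chow/chow animals. No group of Rpl12 stood apart.

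Rpl3l and its parent Rpl3 form 1 of 2 measured pairs of an established l paralogue and its parent. Rpl3l had 11.06, 11.06, 10.95 and 10.91 log2 in high-fat/high-fat and 11.15, 11.04, 11.15 and 11.14 in high-fat/chow animals, against 10.99, 10.95, 11.14, 11.10 and 11.12 in chow/high-fat and 11.10, 11.11, 11.10, 11.09 and 11.00 in chow/chow animals. Rpl3 had 9.05, 9.02, 8.97 and 9.27 log2 in high-fat/high-fat and 9.07, 9.27, 9.30 and 9.25 in high-fat/chow animals, against 8.91, 8.81, 8.79, 8.71 and 9.13 in chow/high-fat and 9.09, 9.17, 8.69, 9.01 and 9.09 in chow/chow animals. Rpl3l stayed within 0.24 log2 over all animals, and Rpl3 within 0.62.

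For each animal the log2 level of Rpl3l minus that of Rpl3 was compared between groups, since the 2 probe sets cannot be set against each other in level. Among high-fat-fed females it averaged 1.92 ± 0.19 in the high-fat lineage and 2.19 ± 0.17 in the chow lineage (SD, n = 4 and 5), a difference of -0.27 with a two-sided exact permutation p of 0.0476. Over the 8 tests of both pairs this gave an adjusted exact p of 0.381, so it did not pass. Without the fourth high-fat/high-fat animal the difference was -0.17. The other pair was Rpl7l1, a relative of Rpl7, and Rpl7. Its differences between groups ran from -0.09 to 0.18 log2, with two-sided exact permutation p-values from 0.159 to 0.657 before adjustment.

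Familiar subunit genes did not pass the test for either diet. Rplp0, the stalk protein used as a reference gene, had differences of 0.08 ± 0.05 log2 for the grandfather's diet (95% interval -0.03 to 0.18, limma adjusted p = 0.498) and 0.04 ± 0.05 for the own diet (-0.07 to 0.15, limma adjusted p = 0.933). Rps6, the small-subunit protein phosphorylated by S6 kinase, had -0.03 ± 0.06 (-0.16 to 0.09, limma adjusted p = 0.831) and -0.07 ± 0.06 log2 (-0.20 to 0.05, limma adjusted p = 0.861). Rpl22, a large-subunit RNA-binding protein, had -0.25 ± 0.09 log2 for the grandfather's diet (-0.45 to -0.06, limma adjusted p = 0.216). Rps19bp1 had 0.04 ± 0.06 and 0.05 ± 0.06 log2.

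Genes that act with the ribosome were examined from lists drawn up together with the members. None of 10 elongation factor genes, 35 initiation factor genes, 17 other TOP genes, 27 genes of ribosomal RNA transcription, 82 ribosome assembly genes, 15 genes from mTORC1 to the ribosome or 64 mitochondrial ribosomal protein genes was called in either average, where 0.0158% of all genes were called for the own diet and 0.198% for the grandfather's diet. Polr1e, a subunit of RNA polymerase I, had 0.25 ± 0.06 log2 for the grandfather's diet (SE, limma adjusted p = 0.067). Utp20, of the small-subunit processome, had 0.17 ± 0.04 log2 (SE, limma adjusted p = 0.099). Eif5a, a translation factor that relieves stalled ribosomes, had 0.19 ± 0.06 log2 for the grandfather's diet and -0.13 ± 0.06 for the own diet (SE, limma adjusted p = 0.124 and 0.718). For the own diet in the high-fat lineage, 9 of 10 elongation factor genes were lower (median -0.09 log2), where 49.6% of all genes were higher. Lower there were 13 of 17 other TOP, 22 of 35 initiation factor and 18 of 27 ribosomal RNA transcription genes (medians -0.09, -0.03 and -0.01). For ribosome assembly it was 42 of 82, from mTORC1 to the ribosome 8 of 15, and for mitochondrial ribosomal proteins 27 of 64 (medians -0.003, -0.006 and 0.02). The lists share some genes.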

How the data were processed

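The authors deposited a linear intensity per probe set and array, made with Affymetrix Expression Console and PLIER per the submitters' processing notes; versions and settings are not given in the sources used here. Per the labels' protocols each array received 200 ng of total RNA. Here, log2(intensity + 16) was quantile normalized over 20917 probe sets. Single-symbol probe sets were kept, 1 per gene by highest mean, above the 25th percentile of mean level (12642 genes). Group means of 18 arrays were fitted with limma 3.58.1 (R 4.3.3) lmFit and eBayes, two-sided, with Benjamini-Hochberg adjustment over 12642 genes within each of 7 comparisons, at 0.05. Array number limits the precision. The fit was tested on simulated data. Over 32 pairs of arrays within groups at most 0.0908% of values were identical.

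Symbols of 104 of 105 members matched RefSeq (GRCr8), 3 of them annotated as pseudogenes. Sequences are RefSeq's. Members, lists and settings were chosen with earlier results of these data known. Named were members called or of the 5 smallest p per comparison, paralogue pairs, a panel of familiar subunits, the 5 largest and smallest SDs, members with a stray sample, and the leading genes of other lists; Rpl11, Rpl14 and the genes named by r were chosen after their values were seen. Paralogue pairs were compared with exact permutation tests. Other settings were the values as deposited or centred on array medians, an added constant of 1 or 64, a filter at the 50th percentile or none, every single-symbol probe set as its own feature, array weights, eBayes with trend and robust, the compared groups alone, a block for the well column, a random block for animals numbered within 3 of each other, and fits without each array or without the 2 of lowest median. Restricting members to plain symbols was added after seeing the data.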

Additional observations from a re-analysis of the deposited data

Results flagged for a closer look

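In groups of 4 or 5 animals, 120 sets of values (30 names in 4 groups) were searched for an animal far from the rest of its group, and 10 were found; chance alone flags about 1 in 20 sets. In the high-fat/high-fat group, animal 4 had 9.93 log2 of Rpl7a (others 10.20 to 10.21) and animal 1 had 10.87 of Rps7 (others 10.76 to 10.77). In the high-fat/chow group, animal 1 had 11.91 of Rpl5 (others 11.55 to 11.60), animal 2 had 11.04 of Rpl3l (others 11.14 to 11.15) and animal 3 had 12.15 of Rpl41 (others 12.10 to 12.11). In the chow/high-fat group, animal 4 had 10.95 of Rpl29 (others 11.10 to 11.16) and animal 1 had 11.27 of Rpl39 (others 11.65 to 11.75). Animal 5 of that group had 10.79 of Rpsa (others 10.43 to 10.52) and a median of 0.065 over centred large-subunit genes (others -0.040 to -0.017). In the chow/chow group, animal 5 had 11.00 of Rpl3l (others 11.09 to 11.11).

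Rpl14l1 moved in opposite directions with the grandfather's diet, by -0.17 log2 in high-fat-fed and 0.11 log2 in chow-fed females, every high-fat-lineage animal lying on that side of its chow-lineage mean. The limma test of that difference, -0.28 log2, did not pass over all genes (adjusted p = 0.649). Over 11 other settings, fits without each array apart, that difference ran from -0.40 to -0.13 log2. In 3 of the 11 it moved by more than 1 SD between replicates. Rpl14l1 is annotated as a transcribed pseudogene, and its mean of 5.74 log2 lay near the filter at 5.28. It was picked by a search for differences that change between groups, so the side its animals lay on is no separate evidence. The share of all genes with such a pattern was not computed.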

How the results depend on the processing

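For the grandfather's diet averaged over own diets, the number of members called was 2, but 0 on the table as deposited, with median centring, with an offset of 1, with the well column or neighbouring animal numbers as a block, and without the 2 arrays of lowest median; it was 7 with array weights (252 of all genes, against 25), 1 over plain symbols alone, and 0 to 8 with 1 array left out. Among high-fat-fed females it was 7 in place of 0 on the table as deposited (1689 of all genes, whose median was 0.18 log2) and 0 to 6 with 1 array left out. The causes were not tested. On the table as deposited, members' medians became -0.127 log2 for the own diet in the chow lineage (all genes -0.130), 0.027 in the high-fat lineage (0.111), -0.044 for the grandfather's diet in chow-fed (-0.056) and 0.145 in high-fat-fed females (0.181), and 0.161 for the difference between lineages (0.240). Of 1516 values of single members under other settings, 1440 kept their side of the threshold and, where not called, stayed within 1 SD between replicates, 15 moved further, and 44 lost and 17 gained a call. The sign changed in 11 of them, none called (Rpl7 and Rpl3l for the grandfather's diet, Rpl22 for the own diet, Rpl7a for the difference between lineages). The titles carry animal numbers and no replicate number shared between groups, so the only block by number was the one of neighbouring animals above. Group sizes of 4 and 5 limit what could be called.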
